A study of Mus musculus with 6 samples.

Results

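The adhesion G protein-coupled receptors were followed in sorted mouse mammary cells, around Adgra3 (Gpr125), the member whose locus carries the reporter used for sorting. Members were all gene symbols made of Adgr, a letter and a number, together with Celsr1 to Celsr3, which gave 30 of the 55291 symbols in the count tables. Of these 30 genes, 19 passed the expression filter and were tested, and 11 did not. RNA was sequenced from 6 libraries of pubertal Adgra3-lz/+ mammary glands, aged 6 weeks per the labels, with both abdominal glands of 5 mice pooled into each sample. All 6 therefore share 1 lacZ and 1 intact Adgra3 allele. The groups, of 2 libraries each, were TEB-distal Gpr125+ cells (the gland beyond the lymph node, with the terminal end buds), nipple-proximal Gpr125+ cells, and Gpr125-negative cells, for which the sample labels give no region. Gpr125+ cells turned over the fluorogenic β-galactosidase substrate FDG and Gpr125-negative cells did not, and all were high for CD49f (integrin α6) after removal of cells positive for CD31, CD45 or Ter119. The study's antibody panel also lists CD140a, the product of the fibroblast marker Pdgfra, which the labels do not name for this sort. Gpr125 status is thus read from reporter enzyme activity, and both comparisons with the Gpr125-negative group share the same 2 reference libraries.

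Adhesion GPCRs have long extracellular parts that bind cell surface and matrix proteins, and most cut themselves at a juxtamembrane site, leaving a tethered peptide that can activate the receptor. Adgra3 belongs to a small subfamily with Adgra1 and Adgra2, of which Adgra2 (Gpr124) works in brain endothelium with the membrane-anchored protein Reck to pass on Wnt7a and Wnt7b signals. Adgra3 is an orphan receptor that binds the PDZ scaffold Dlg1 and has been linked to planar cell polarity, and in the mammary gland its reporter marks basal cells with progenitor activity.

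On the reporter allele, lacZ takes the place of the end of Adgra3 from exon 16 to exon 19. The gene (ENSMUSG00000029090.12) lies on the minus strand of chromosome 5 from 49959956 to 50059006 in GRCm38. Its 19-exon transcript has 4480 bases, of which 1925 (43.0%) are replaced, from 49959956 to 49970813, and 2555 are shared by both alleles. Reads from exons 1 to 15 can therefore come from either allele and reads from exons 16 to 19 from the intact one, and a count per gene does not separate them. The junction of exons 15 and 16 is shown because it marks the break between shared and replaced sequence, with the last 30 bases of exon 15 in lower case and the first 30 of exon 16 in capitals.
Adgra3 exon 15 to 16: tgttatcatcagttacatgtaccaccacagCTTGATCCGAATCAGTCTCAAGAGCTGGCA
The 250 bases before the RefSeq start of Adgra3 (GRCm38.p6, chr5:50058997-50059246, minus strand), which lie upstream of both alleles, are shown next, with the GC box letters GGGCGG in capitals.
Adgra3 promoter: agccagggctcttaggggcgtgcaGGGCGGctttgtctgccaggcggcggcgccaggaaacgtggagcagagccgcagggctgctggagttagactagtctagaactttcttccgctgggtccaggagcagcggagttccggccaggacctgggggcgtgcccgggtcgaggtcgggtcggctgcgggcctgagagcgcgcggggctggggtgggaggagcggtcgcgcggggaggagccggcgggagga
Its GC content was 71.6% and it held 25 CpG dinucleotides, against medians of 52.4% and 6 over the 32851 promoters of the table. A GC box on either strand was found in 14 of 26 promoters of 22 family genes and in 32.7% of all promoters.

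**Figure D1:**
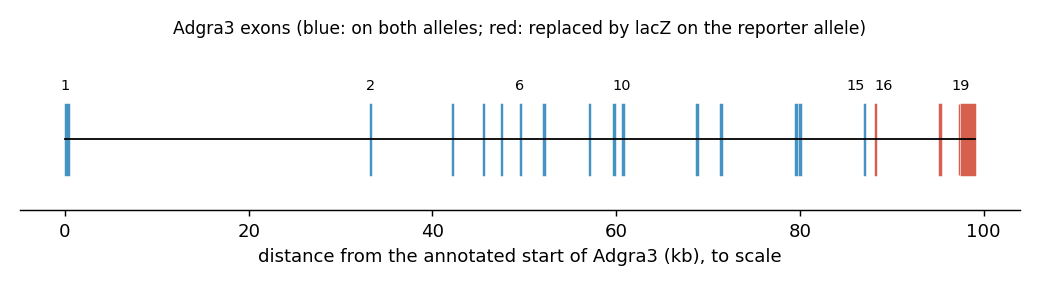
Exons of Adgra3 drawn to scale along the gene (x axis, kilobases from the annotated start), with exons on both alleles in blue and the exons replaced by lacZ on the reporter allele in red. Exon 16 starts 88.2 kb from the start, and the large exon 19 carries most of the replaced 1925 bases.

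Adgra3 itself was not higher in the cells sorted as positive for its reporter. Libraries labelled Gpr125-negative held 1658 and 550 Adgra3 reads, TEB-distal libraries 385 and 142, and nipple-proximal libraries 391 and 262. Scaled to library size with edgeR's TMM factors (CPM), this was 35.7 and 18.6, 15.01 and 4.83, and 19.2 and 12.3 CPM in the same order. Both TEB-distal libraries were below both labelled Gpr125-negative, while 1 of the nipple-proximal libraries lay inside their range. The means were 27.2 ± 12.1, 9.92 ± 7.196 and 15.8 ± 4.86 CPM (SD, n = 2 each). In edgeR's quasi-likelihood test, fitted on all 17268 genes that passed the filter, the log2 fold change was -1.45 (SE 0.92, adjusted p = 0.982) for TEB-distal cells and -0.78 (SE 0.90, adjusted p = 1) for nipple-proximal cells over the libraries labelled Gpr125-negative. Between TEB-distal and nipple-proximal cells it was -0.67 (SE 0.90, adjusted p = 1), and none of these passed the threshold. The direction was the same with any 1 library left out, with log2 fold changes from -2.49 to -0.86, from -1.17 to -0.37 and from -1.64 to -0.09. Because the reporter gene's own RNA runs against the sort label, the group is called the libraries labelled Gpr125-negative throughout. Reads on lacZ were not analysed here.

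The closest relatives of Adgra3 were barely detected. Adgra1, an orphan receptor best known from the nervous system, had 52 reads in 1 library labelled Gpr125-negative (replicate 1), 78 in TEB-distal replicate 1 and 0 in the 4 others. The level in those libraries was 1.12 and 3.04 CPM, so each group's value rests on at most 1 library. Against the nipple-proximal group, in which both libraries were at 0, Adgra1 was at least 3.88-fold higher in the labelled Gpr125-negative pair and at least 10.5-fold higher in TEB-distal cells, with the zero group set to a floor of 3 counts per library. Without its single positive library neither group has a read, so no fold remains. Adgra2 had 106 and 0 reads in the labelled Gpr125-negative pair, 20 and 0 in TEB-distal and 8 and 9 in nipple-proximal libraries, which is 2.28 and 0, 0.780 and 0, and 0.393 and 0.424 CPM. The nipple-proximal pair was the only one in which both libraries had Adgra2 reads, and the ranges of the groups overlapped. Its log2 fold changes were -1.55 (SE 2.71), -1.48 (SE 2.72) and -0.07 (SE 2.68) for TEB-distal over labelled Gpr125-negative, nipple-proximal over labelled Gpr125-negative and TEB-distal over nipple-proximal, with an adjusted p of 1 in each from edgeR's quasi-likelihood test. Leaving out replicate 1 of the labelled Gpr125-negative group turned the first to 6.26 and the second to 6.35, and the direction of the third depended on the scaling (0.072 with DESeq2's size factors). Adgra2 shares exon bases with Brf2 on the other strand, and the counting ignored strand, so reads on the shared bases cannot be told apart.

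Among the known partners of the subfamily, Reck was higher in each Gpr125+ library. It had 32 and 1 reads in the labelled Gpr125-negative pair, 35 and 260 in TEB-distal and 71 and 257 in nipple-proximal libraries. All Gpr125+ libraries were above the other 2, at 1.36 to 12.1 CPM against 0.0339 to 0.689. Its log2 fold changes were 3.79 (SE 1.95, adjusted p = 0.872) for TEB-distal and 4.40 (SE 2.00, adjusted p = 1) for nipple-proximal cells in edgeR's quasi-likelihood test. Wnt7a was at 0 in all 6 libraries, while the other ligand, Wnt7b, was present in all of them at 3.08 to 20.4 CPM with overlapping groups. The scaffold Dlg1 was read in every library, from 24.9 CPM in TEB-distal replicate 2 to 91.2 CPM in TEB-distal replicate 1, so its full range fell within 1 group.

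Set side by side per length, Adgrg1 had the highest mean of the family. Levels per kilobase are CPM divided by the summed length of each gene's annotated exons in GENCODE M21, and only these are compared between genes. Adgrg1 (Gpr56, a receptor for collagen III and transglutaminase 2 known from cortical development) averaged 13.3 CPM per kilobase over the 6 libraries, with a range of 5.34 to 28.4, and ranked first in each group's mean, although Celsr2 (9.37) led in replicate 1 labelled Gpr125-negative and Adgrf5 (9.09) in replicate 2. Celsr2, Adgrl1, Adgrf5, Adgrf4 and Adgra3 followed at 2.72, 2.69, 2.59, 2.51 and 2.17 per kilobase. Adgra3 ranked 6 over all libraries, and 6, 7 and 4 among the means of the labelled Gpr125-negative, TEB-distal and nipple-proximal groups. The order depends on the length used. Annotated exons of Adgra3 sum to 8113 bases against 4480 in its longest transcript, those of Celsr2 to 11513 against 10598. Per coding length Adgra3 ranked 5, 7 and 5 in the same groups. Only 1 allele carries exons 16 to 19 of Adgra3, so its count is not on the same footing as those of the other members. Neighbours in the order mostly did not differ beyond the spread of their libraries. In nipple-proximal cells the libraries of Adgrg1 lay above those of the next gene, Adgrl1 (means of 22.2 and 3.29). Adgra1 and Adgra2, in comparison with the 2.17 of Adgra3, averaged 0.13 and 0.11 per kilobase.

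**Figure D2:**
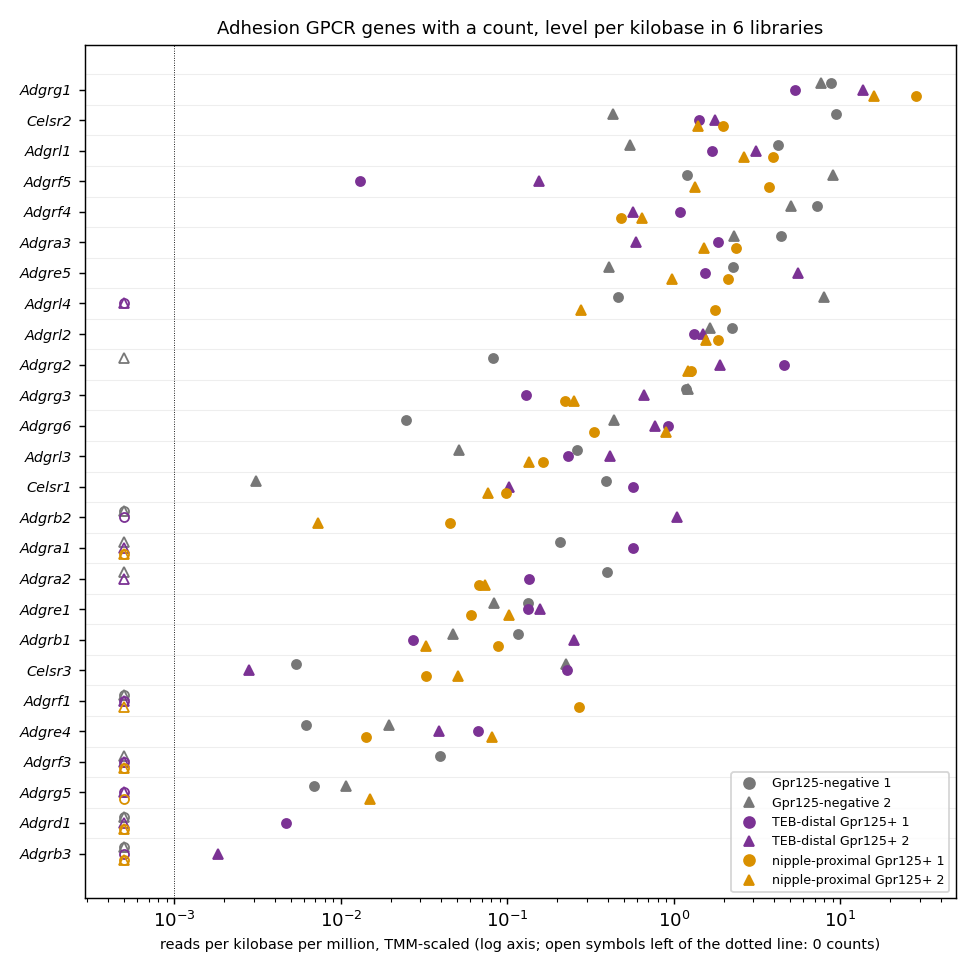
Level of each adhesion GPCR gene with a count (y axis, in order of its mean) in CPM per kilobase (x axis, log scale), with a symbol per library, coloured by group. Adgrg1 leads in the 4 Gpr125+ libraries, Adgra3 holds a range of 0.596 to 4.40, and open symbols mark libraries with 0 counts.

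The family as a whole took 157 to 327 CPM per library, and its makeup differed from library to library. By reads, Celsr2 led with 33.1% of the family's CPM in replicate 1 labelled Gpr125-negative, and Adgrf5 with 33.1% in replicate 2. In the TEB-distal and nipple-proximal libraries it was Adgrg1, with 18.4% and 34.9%, and 47.2% and 42.5%. Adgra3 contributed 2.27% to 11.0%. The 2 libraries labelled Gpr125-negative were also the least alike of any pair over all genes tested (Pearson r of log2 CPM across genes 0.733, against 0.933 for the nipple-proximal pair). A 2 against 2 comparison cannot give an exact permutation p below 0.333, so the tests rest on the spread shared across genes. That spread was wide, with a biological coefficient of variation of 0.967.

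TEB-distal cells were compared with the libraries labelled Gpr125-negative to ask what marks the reporter-positive cells at the growing end of the ducts. Adgrl4, Adgrf5, Adgrf4, Adgrg3, Adgra3 and Adgrl2 were lower in both TEB-distal libraries, and Adgrg2 and Adgrg6 were higher in both. None of the 19 tested members passed the threshold of an adjusted p under 0.1 and at least 2-fold (0% of all 17268 genes passed), with the smallest adjusted p at 0.803 in edgeR's quasi-likelihood test. At an unadjusted p under 0.05 there were 4 members, 1 higher (background 3.8%) and 3 lower (background 2.25%), where 6.05% of all genes tested had such a p. That is 21.1% of the tested members. Groups did not overlap for 8 of 19 members, 42.1%, against 24% of all genes. Of these, 2 were above (14% of all genes) and 6 below (10%). DESeq2, run on the same 6 libraries, called 5 members (Adgrb2, Adgrf4, Adgrf5, Adgrg2 and Adgrl4) among 943 genes, 3.22% of the 29282 with a count. The median log2 fold change of the tested members was 0.016, with 8 of them lower (48.9% of all genes), beside 0.027 for all genes tested. Members were also called under alternatives: 4 with DESeq2 on the 4 compared libraries (background 2.51%), 2 when edgeR tested every gene with a count (0.468%), 3 without replicate 1 labelled Gpr125-negative (3.85%) and 2 without nipple-proximal replicate 1 or 2 (0.219% and 0.224%).

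Adgrl4 and Adgrf5, which are both known for their expression in blood vessel endothelium, had the most negative log2 fold changes of the tested members for TEB-distal cells. Adgrl4 (Eltd1, an orphan receptor on chromosome 3, 151437887 to 151545086, linked to angiogenesis) had 99 and 1083 reads in the labelled Gpr125-negative pair, 0 and 0 in TEB-distal and 165 and 27 in nipple-proximal libraries. In CPM this was 2.13 and 36.7, 0 and 0, and 8.10 and 1.27. It was thus read in all libraries but the TEB-distal ones, and its level varied widely within each of the other groups. Against a floor of 3 counts per TEB-distal library, Adgrl4 was at least 177-fold higher in the labelled Gpr125-negative pair and at least 42.8-fold higher in nipple-proximal cells, or at least 19.4-fold and 11.6-fold taking the lower library of each. The unadjusted p of edgeR's quasi-likelihood test was 0.00402 for the first comparison and 0.00791 for the second, with adjusted p of 0.803 and 1.

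Adgrf5 (Gpr116, chromosome 17, 43360451 to 43459557), also known for controlling surfactant in the lung, followed the same order of groups. It had 499 and 2417 reads in the labelled Gpr125-negative pair, 3 and 41 in TEB-distal and 685 and 255 in nipple-proximal libraries, or 10.7 and 81.9, 0.117 and 1.40, and 33.6 and 12.005 CPM. TEB-distal libraries lay below all others and the 2 remaining groups overlapped. Its log2 fold change for TEB-distal cells was -5.92 (SE 1.60) over the libraries labelled Gpr125-negative and -4.90 (SE 1.53) over nipple-proximal cells, with unadjusted p of 0.00660 and 0.0133 and adjusted p of 0.803 and 1 in edgeR's quasi-likelihood test. Sftpd, the gene of surfactant protein D, a lung ligand of this receptor, was at 0 in all libraries.

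Most endothelial marker genes were, like these 2 receptors, lower in TEB-distal cells than in the libraries labelled Gpr125-negative. The summed level of 12 endothelial markers was 983 to 1441 CPM in the labelled Gpr125-negative pair, 20.4 to 23.7 in TEB-distal and 30.04 to 269.9 in nipple-proximal libraries. For TEB-distal over labelled Gpr125-negative, 11 of 11 tested markers had a negative log2 fold change (48.9% of all genes), with 10 of them not overlapping (10% of all genes) and 9 at an unadjusted p under 0.05 (2.25%) in edgeR's quasi-likelihood test. For nipple-proximal over labelled Gpr125-negative, 11 of 11 were lower as well (50.2% of all genes). Of these, 8 did not overlap (10.8%) and 3 had such a p (0.927%), while Adgrl4 and Adgrf5 overlapped between those groups. Emcn, the endothelial sialomucin endomucin, named here after its values were seen, had 11970 and 13276 reads in the labelled Gpr125-negative pair, 5 and 3 in TEB-distal and 365 and 99 in nipple-proximal libraries. Tie1, an endothelial receptor tyrosine kinase named likewise, had 1523 and 1806, 1 and 1, and 244 and 34 reads. Both followed Adgrf5 and Adgrl4 in being at or near 0 in the TEB-distal libraries. Kdr, the VEGF receptor gene, overlapped between groups, with 15 and 408 reads in the labelled Gpr125-negative pair, 109 and 6 in TEB-distal and 22 and 22 in nipple-proximal libraries. Sox17, which was not tested, went the other way, with 0 and 1 reads in the labelled Gpr125-negative pair, 0 and 0 in TEB-distal and 93 and 9 in nipple-proximal libraries. Erg was at 0 in TEB-distal replicate 2 and Tek in nipple-proximal replicate 2. Pecam1, the gene of the CD31 protein used to remove endothelial cells, was read at 43.4 and 56.2 CPM in the labelled Gpr125-negative pair and at 2.40 to 27.0 CPM in the others. Within the libraries labelled Gpr125-negative, Adgrl4 and Adgrf5 were higher in replicate 2, as were Pecam1 and the reads of Emcn, Tie1 and Kdr. The sum of all 12 markers was instead higher in replicate 1. The part of endothelial cells in the levels of Adgrl4 and Adgrf5 was not tested, and in bulk RNA fewer cells of a type and less RNA per cell cannot be told apart.

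**Figure D3:**
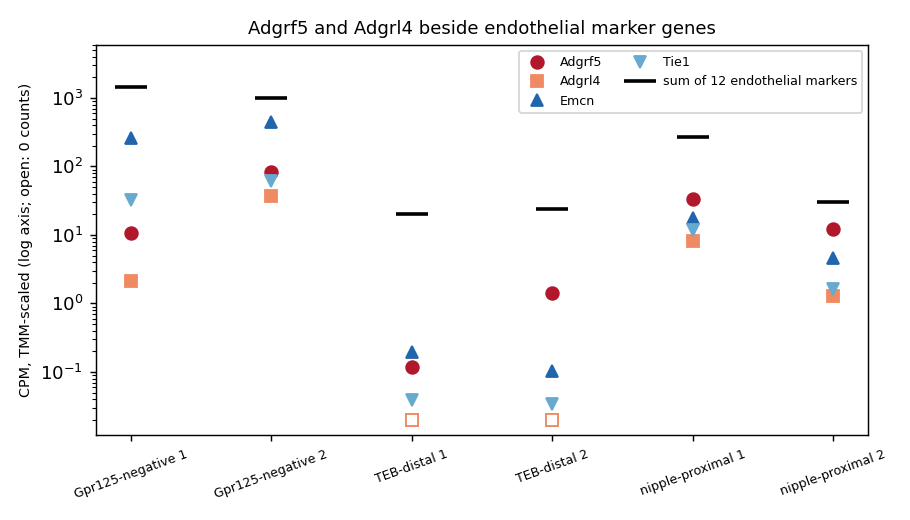
Adgrf5, Adgrl4, the endothelial genes Emcn and Tie1, and the sum of 12 endothelial markers in each library (x axis), in CPM on a log axis. Each peaks in a library labelled Gpr125-negative and is lowest in a TEB-distal one, where Adgrl4 has 0 counts (open symbols).

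The promoters of these 2 receptors are shown because both genes were lowest in TEB-distal cells and ETS factors are known regulators of endothelial genes. The 250 bases before each RefSeq start (GRCm38.p6, plus strand) are given for Adgrf5 at chr17:43360181-43360430 and chr17:43389216-43389465 and for Adgrl4 at chr3:151437632-151437881. Capitals mark the ETS core letters AGGAAG or CGGAAG on either strand.
Adgrf5 promoter, first start: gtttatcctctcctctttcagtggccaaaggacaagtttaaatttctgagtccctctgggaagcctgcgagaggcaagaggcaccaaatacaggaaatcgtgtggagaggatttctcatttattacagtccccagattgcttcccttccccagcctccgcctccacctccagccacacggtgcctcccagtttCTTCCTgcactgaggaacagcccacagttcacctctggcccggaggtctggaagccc
Adgrf5 promoter, second start: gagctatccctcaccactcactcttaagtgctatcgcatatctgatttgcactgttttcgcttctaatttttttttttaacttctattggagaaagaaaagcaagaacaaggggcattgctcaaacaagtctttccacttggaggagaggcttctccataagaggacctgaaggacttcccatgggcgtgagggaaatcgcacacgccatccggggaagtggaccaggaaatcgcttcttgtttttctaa
Adgrl4 promoter: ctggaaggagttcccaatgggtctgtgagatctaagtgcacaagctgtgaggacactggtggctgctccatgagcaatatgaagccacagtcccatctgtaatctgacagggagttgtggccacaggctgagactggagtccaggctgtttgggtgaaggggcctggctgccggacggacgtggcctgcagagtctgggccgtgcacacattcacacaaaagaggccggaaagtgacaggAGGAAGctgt
The letters occurred once upstream of the first Adgrf5 start and once upstream of Adgrl4. They were found in 10 of 26 promoters of the family and in 39.2% of all promoters of the table.

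Adgrf4 separated both Gpr125+ groups from the libraries labelled Gpr125-negative. This receptor (Gpr115, chromosome 17, 42656891 to 42692284) is known from stratified epithelia and enamel-forming cells. It had 1029 and 456 reads in the labelled Gpr125-negative pair, 85 and 51 in TEB-distal and 30 and 42 in nipple-proximal libraries, which is 22.1 and 15.4, 3.31 and 1.74, and 1.47 and 1.98 CPM. All 4 Gpr125+ libraries were below both others. The log2 fold change was -2.89 (SE 1.17) for TEB-distal and -3.44 (SE 1.20) for nipple-proximal cells, with unadjusted p of 0.0392 and 0.0213 and adjusted p of 0.812 and 1 in edgeR's quasi-likelihood test.

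Adgrg2 showed the opposite order. Adgrg2 (Gpr64, chromosome X, 160390690 to 160498070), known from the epididymal duct, had 20 and 0 reads in the labelled Gpr125-negative pair, 622 and 295 in TEB-distal and 137 and 137 in nipple-proximal libraries. In CPM these were 0.430 and 0, 24.3 and 10.04, and 6.73 and 6.45. Every Gpr125+ library was above both labelled Gpr125-negative, and the TEB-distal libraries were above the nipple-proximal ones. The log2 fold change was 6.25 (SE 1.95, unadjusted p = 0.0132, adjusted p = 0.803) for TEB-distal and 4.87 (SE 1.83, unadjusted p = 0.0298, adjusted p = 1) for nipple-proximal cells in edgeR's quasi-likelihood test. Without replicate 1 of the labelled Gpr125-negative group, where the 20 reads lie, edgeR's test called it in both comparisons against a reference of 0 reads (background 3.85% and 1.73%). Adgrg2 shares exon bases with Gm15241 on the other strand, and the unstranded counts do not separate reads on those bases.

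Adgrg3, a neighbour of Adgrg1, had nearly the same level in both libraries labelled Gpr125-negative. Adgrg3 (Gpr97, chromosome 8, 95017692 to 95045250), known from granulocytes and lymphatic endothelium, had 379 and 247 reads there, 23 and 135 in TEB-distal and 31 and 37 in nipple-proximal libraries. This was 8.15 and 8.37, 0.897 and 4.60, and 1.52 and 1.74 CPM, with both Gpr125+ groups below the labelled Gpr125-negative group and overlapping each other. Its log2 fold change was -1.59 (SE 1.45, unadjusted p = 0.306) for TEB-distal and -2.34 (SE 1.49, unadjusted p = 0.155) for nipple-proximal cells in edgeR's quasi-likelihood test. Leukocyte markers did not move as 1 list. In TEB-distal cells 7 of 10 tested were higher and 3 lower than in the libraries labelled Gpr125-negative (48.9% of all genes lower). In nipple-proximal cells 5 were higher and 5 lower (50.2% of all genes lower). The 12-gene sum of these markers was 108 to 139 CPM in the labelled Gpr125-negative pair, 154 to 314 in TEB-distal and 120 to 208 in nipple-proximal libraries. Cd68 alone was at 43.3 to 71.1, 119 to 290 and 99.2 to 178 CPM in the same order. Cd14, a monocyte gene, was at 17.0 and 56.0, 3.85 and 6.75, and 4.57 and 8.94 CPM in that order. Like Adgrg3 it was lower in both Gpr125+ groups, which overlapped each other. Unlike Adgrg3 it differed between the 2 libraries labelled Gpr125-negative. Csf1r was lower in both TEB-distal libraries, while C1qa had no more than 6 reads in any. The endothelial marker sum, given above, was also highest in the libraries labelled Gpr125-negative. The part of leukocytes or endothelial cells in the level of Adgrg3 was not tested. Adgrg3 begins 3.474 kb after the end of Adgrg1 on the same strand, and Adgrg5 ends 31.47 kb before Adgrg1. Of these 3 neighbours, Adgrg1 was the highest member of the family and Adgrg5 had at most 1 read in any library.

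**Figure D4:**
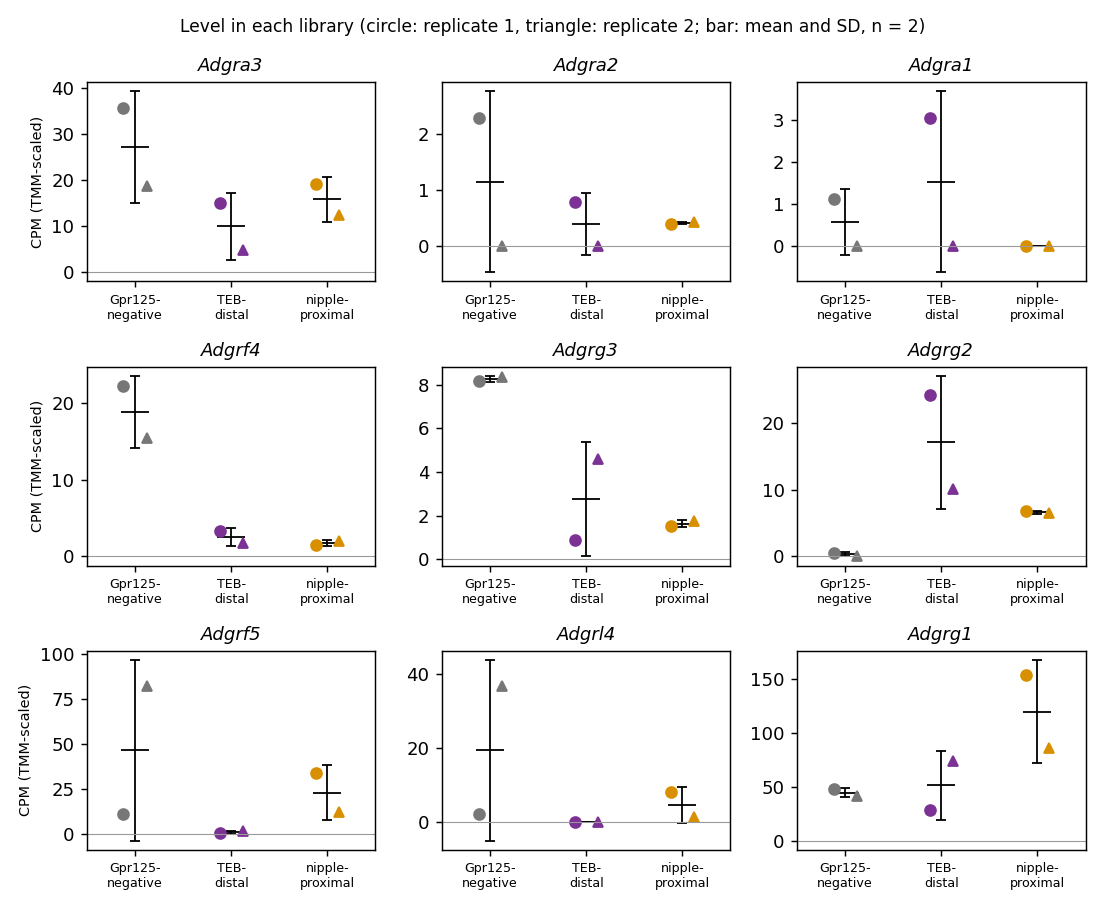
CPM of 9 members in each library (points), with the mean and SD of each group (bars, n = 2). Adgra3 peaks in replicate 1 labelled Gpr125-negative, Adgrf4 is highest in both libraries of that group, Adgrg2 is highest in the TEB-distal libraries at 10.04 and 24.3 CPM, and Adgrl4 is at 0 there.

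Nipple-proximal cells were set against the same reference libraries, which asks what marks reporter-positive cells in the part of the gland that is already laid down. Adgrf4 and Adgrg3 were lower in both nipple-proximal libraries and Adgrg2 and Adgrg1 higher in both. Again none of 19 members passed the threshold (0% of all genes), with a smallest adjusted p of 1 in edgeR's quasi-likelihood test. An unadjusted p under 0.05 was found for 2 members, 1 higher (background 2.62%) and 1 lower (background 0.927%), against 3.55% of all genes. Groups were apart for 4 of the 19, or 21.1%, which is below the 30.6% of all genes tested, with 2 above (background 19.9%) and 2 below (background 10.8%). DESeq2 on the 6 libraries called Adgrf4 and Adgrg2 among 321 genes (1.1% of those with a count), 1 member on the 4 compared libraries (1.16%), and edgeR 1 without replicate 1 labelled Gpr125-negative (1.73%). The tested members had a median log2 fold change of -0.78, and 14 of them were lower (50.2% of all genes), beside a median of -0.0032 for all genes tested.

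Adgrg1, the family's highest gene per kilobase in nipple-proximal cells, was above its other groups there. It had 2217 and 1233 reads in the labelled Gpr125-negative pair, 743 and 2184 in TEB-distal and 3139 and 1832 in nipple-proximal libraries, or 47.7 and 41.8, 29.0 and 74.4, and 154 and 86.2 CPM. Nipple-proximal libraries were above all others. The log2 fold change was 1.43 (SE 0.72, unadjusted p = 0.0856, adjusted p = 1) over the libraries labelled Gpr125-negative in edgeR's quasi-likelihood test, and TEB-distal over nipple-proximal it was -1.22 (SE 0.72, unadjusted p = 0.130). Its ligand Tgm2 was read in all libraries at 6.98 to 29.6 CPM, and each Gpr125+ group overlapped the libraries labelled Gpr125-negative. The other ligand, Col3a1, was at 6.91 and 7.88 CPM in the TEB-distal libraries and at no more than 2.59 CPM in the others, and it is also one of the fibroblast markers given below.

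The 2 Gpr125+ groups were then compared with each other, as both were sorted by the same reporter from different regions. Adgrl4, Adgrf5, Adgrg1 and Adgrl2 were lower in both TEB-distal libraries, and Adgrg2, Adgrl3, Adgre1 and Celsr1 were higher in both. This makes 8 of 19 members with groups apart, 42.1%, beside 33.5% of all genes tested, with 4 above (background 15.2%) and 4 below (background 18.3%). No member passed the threshold (0% of all genes), and the 2 with an unadjusted p under 0.05 in edgeR's quasi-likelihood test, Adgrl4 and Adgrf5, were both lower in TEB-distal cells (background 1.46% for lower genes, 0.747% for higher and 2.21% in all). DESeq2 called Adgrl4 and Adgrf5 too, among 133 genes (0.454%), as it did on the 4 compared libraries (1.3%) and as edgeR did when every gene with a count was tested (0.133%). The median of the members was 0.55, with 8 of them lower (47.4% of all genes), beside 0.059 for all genes tested. Adgrg2, at 10.04 and 24.3 CPM against 6.45 and 6.73, had a log2 fold change of 1.38 (SE 1.58), and Celsr1 one of 1.94 (SE 2.15). Of 11 tested endothelial markers, 10 had a negative log2 fold change here (47.4% of all genes). Of the 11, 4 were apart and lower (18.3% of all genes), and 3 were lower at an unadjusted p under 0.05 (1.46%) in edgeR's quasi-likelihood test.

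**Figure D5:**
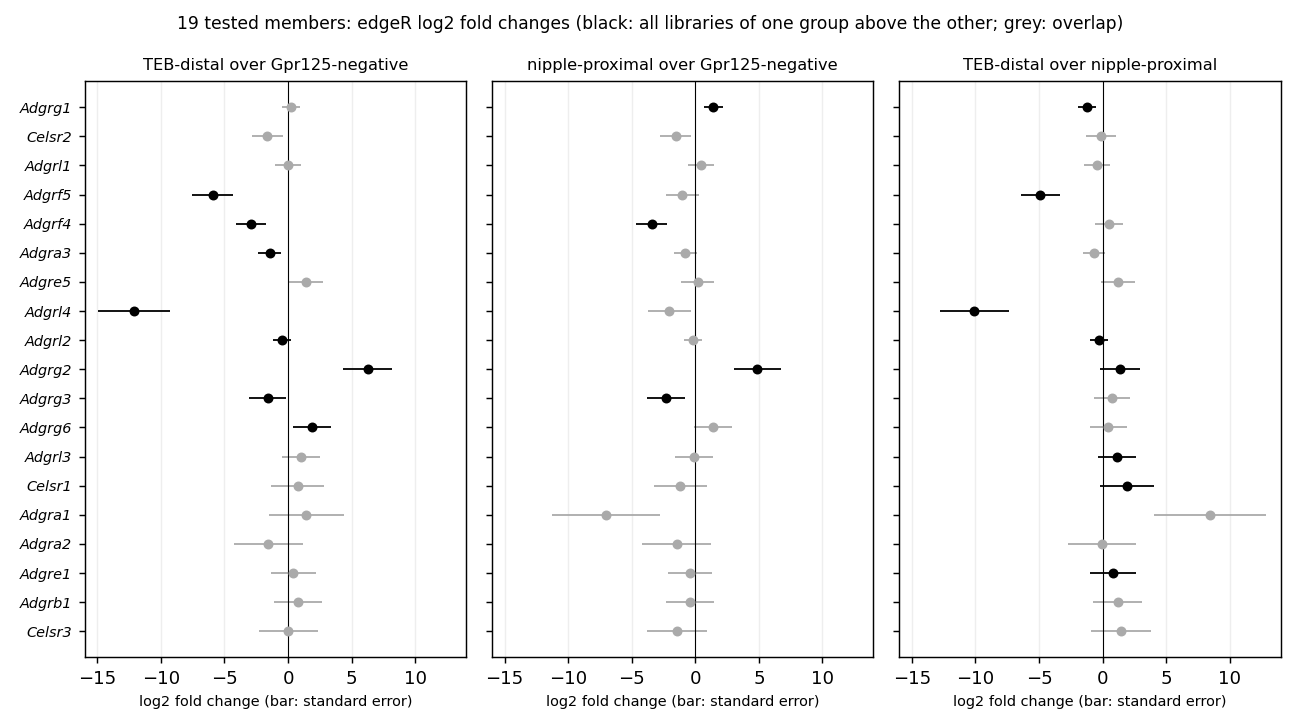
edgeR log2 fold changes of the 19 tested members (x axis; bars, SE) in the 3 comparisons (panels). Black points have all libraries of 1 group above the other and grey points overlap. In the panels with TEB-distal cells, Adgrl4, at 0 counts there, has the most negative fitted values. These depend on the prior count and are no bound.

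Other members were described by their level and largest difference, grouped by what they do. The Celsr genes encode the atypical cadherins of the planar cell polarity pathway. Celsr2 was the most read of them, at 108 and 4.98 CPM in the labelled Gpr125-negative pair and at 16.01 to 22.8 CPM in the 4 Gpr125+ libraries. Its full range was found between replicates of 1 group, and its log2 fold change for TEB-distal cells was -1.63 (SE 1.21). Celsr1 ranged from 0.0339 to 6.28 CPM and Celsr3 from 0.0340 to 2.77 CPM. Of the 12 other polarity genes, such as Vangl2 and Fzd6, 0 had an unadjusted p under 0.05 in any of the 3 comparisons. Vangl2, the gene of a 4-pass membrane protein at the core of the pathway, was at 6.20 and 17.7 CPM in the libraries labelled Gpr125-negative, above all Gpr125+ libraries at 0.546 to 5.27 CPM, with log2 fold changes of -2.48 (SE 1.46) and -1.56 (SE 1.42). Of the 12, it alone was apart and lower in nipple-proximal cells (10.8% of all genes), where 6 were apart and higher (19.9%): Vangl1, at 46.0 and 54.1 CPM against 40.8 and 17.3 CPM, and Dvl3, Prickle1, Ankrd6, Fat4 and Dchs1. In TEB-distal cells 2 were apart and higher (14%), Prickle1 and Fat4, and 2 lower (10%), Vangl2 and Fzd6.

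The latrophilins, Adgrl1 to Adgrl3, bind teneurins and FLRT proteins on neighbouring cells. Adgrl2 varied little, at 18.7 to 31.9 CPM over the 6 libraries, and its largest log2 fold change was -0.47 (SE 0.70) for TEB-distal over labelled Gpr125-negative. Adgrl1 ranged from 4.67 to 36.2 CPM and Adgrl3 from 0.915 to 7.32 CPM, and both were lowest in replicate 2 labelled Gpr125-negative. Among their ligands Flrt2 was at 11.2 and 25.5 CPM in the labelled Gpr125-negative pair and 0.518 and 1.87 CPM in nipple-proximal libraries, with a log2 fold change of -3.94 (SE 1.49, unadjusted p = 0.0303, adjusted p = 1 in edgeR's quasi-likelihood test). Tenm2 was read in all libraries, from 9.63 to 73.4 CPM, and Tenm1 in none. The exons of Adgrl1, Adgrl2 and Adgrl3 overlap other annotated genes, whose reads the counts may not separate.

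Adgrg6 (Gpr126), which is needed for myelination by Schwann cells and binds collagen IV and laminin-211, was higher in TEB-distal than in labelled Gpr125-negative libraries. It had 14 and 158 reads in the labelled Gpr125-negative pair, 290 and 278 in TEB-distal and 83 and 234 in nipple-proximal libraries. The TEB-distal libraries, at 9.46 and 11.3 CPM, were above the labelled Gpr125-negative ones at 0.301 and 5.35 CPM, and the log2 fold change was 1.88 (SE 1.52, unadjusted p = 0.254) in edgeR's quasi-likelihood test. Nipple-proximal libraries, at 4.08 and 11.0 CPM, overlapped both other groups. By group mean, the collagen ligands of Adgrg6 were in the same order as the receptor. Col4a1 was at 825 and 1892 CPM in TEB-distal, 223 and 156 CPM in labelled Gpr125-negative and 562 and 417 CPM in nipple-proximal libraries, with a log2 fold change of 2.84 for TEB-distal over labelled Gpr125-negative (SE 0.81, unadjusted p = 0.00786, adjusted p = 0.803 in edgeR's quasi-likelihood test). Col4a2 had a log2 fold change of 2.42 (SE 0.81, unadjusted p = 0.0180, adjusted p = 0.803 by edgeR's test). Lama2, the α chain of laminin-211, was at 1.67 to 19.7 CPM in the first 2 of these groups and had 1 read in the nipple-proximal libraries together. Schwann cell markers summed to 146 to 265 CPM in the labelled Gpr125-negative pair, 36.9 to 80.7 in TEB-distal and 108 to 134 in nipple-proximal libraries. In TEB-distal cells 6 of 6 tested were lower (48.9% of all genes) and 1 was apart and lower (10%). In nipple-proximal cells 4 were lower and 2 higher (50.2% of all genes lower), with 3 apart and lower (10.8%). The part of Schwann cells in the level of Adgrg6 was not tested. Adgrg6 shares exon bases with Gm46212 on the other strand, and the unstranded counts do not separate reads on those bases.

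The remaining tested members were Adgre5, Adgre1 and Adgrb1. Adgre5 (Cd97), a leukocyte and epithelial receptor for Cd55, ranged from 1.52 CPM in labelled Gpr125-negative replicate 2 to 20.9 CPM in TEB-distal replicate 2, and its largest log2 fold change was 1.41 (SE 1.33) for TEB-distal cells. It shares exon bases with Ddx39 on the other strand and with Mir1668, and the counts do not separate reads on those bases. Cd55 had 0 reads in that same TEB-distal library and 103 to 780 in the others. Adgre1, which encodes the macrophage antigen F4/80, had 4 to 20 reads per library. Adgrb1 (Bai1), a receptor for apoptotic cells that signals through Elmo1 and Dock1, had 5 to 53 reads. Rtn4r, the Nogo receptor and a ligand of the Adgrb receptors, was at 0.0677 and 0.172 CPM in the labelled Gpr125-negative pair and at 4.38 to 11.98 CPM in Gpr125+ libraries, with log2 fold changes of 6.17 (SE 1.66, unadjusted p = 0.00602, adjusted p = 0.803) and 5.20 (SE 1.59, unadjusted p = 0.0115, adjusted p = 1) in edgeR's quasi-likelihood test. Elmo1 and Dock1 were lower in nipple-proximal than in labelled Gpr125-negative libraries, with log2 fold changes of -2.21 (SE 0.93, unadjusted p = 0.0454) and -1.95 (SE 0.83, unadjusted p = 0.0471) and an adjusted p of 1 for both in edgeR's quasi-likelihood test.

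Across the partner lists, no gene passed the threshold in any of the 3 comparisons. Of 19 tested ligands and co-receptors, 3 had an unadjusted p under 0.05 in edgeR's quasi-likelihood test and were higher in TEB-distal than in labelled Gpr125-negative libraries (Rtn4r, Col4a1 and Col4a2), against 3.8% of all genes. In nipple-proximal cells 1 was higher (Rtn4r; background 2.62%) and 2 lower (Flrt2 and Lama2; background 0.927%), and Lama2 was also higher in TEB-distal than in nipple-proximal cells (background 0.747%). The median log2 fold change of this list over the libraries labelled Gpr125-negative was 0.50 for the TEB-distal and 0.80 for the nipple-proximal group, beside 0.027 and -0.0032 for all genes tested. Among the 12 PDZ and scaffold genes only Elmo1 and Dock1 had such a p, both lower in nipple-proximal cells (background 0.927%). Of the 14 G protein α subunits and arrestins, through which these receptors signal, Gnao1 and Gna11 had one, both lower in TEB-distal than in labelled Gpr125-negative libraries (background 2.25%), with log2 fold changes of -5.79 (SE 2.40) and -2.12 (SE 0.89). Gna12 and Gna13, subunits to which several adhesion GPCRs couple, were read in all libraries at 18.1 to 105 and 79.9 to 346 CPM.

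The 11 members that did not pass the filter had few reads. Adgrf2, Adgrg4, Adgrg7 and Adgrv1 were at 0 in all 6 libraries, where 3 counts correspond to 0.0645 to 0.147 CPM (counting error only, as there are no molecular identifiers). Adgrb3 and Adgrd1 had 1 read each, Adgrg5 at most 1 and Adgre4 at most 6 in a library. Adgrf3 had 6 reads in 1 library labelled Gpr125-negative and Adgrf1 21 reads in nipple-proximal replicate 1. Adgrb2 (Bai2) had 199 reads in TEB-distal replicate 2, 0 in the other TEB-distal library and at most 6 elsewhere. DESeq2's call of Adgrb2 therefore came from a single library.

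The marker genes give the setting of these values. All 12 basal markers had reads in each library, and their sums were higher in the Gpr125+ libraries, at 3393 and 3554 CPM in the labelled Gpr125-negative pair, 4017 and 23031 in TEB-distal and 9449 and 14952 in nipple-proximal libraries. Over the libraries labelled Gpr125-negative, 6 of the 12 were higher in TEB-distal cells at an unadjusted p under 0.05 in edgeR's quasi-likelihood test (background 3.8%), and 7 were apart and higher (14%). In nipple-proximal cells 3 had such a p (2.62%) and 10 were apart and higher (19.9%). Trp63, a basal transcription factor, was instead lower in both TEB-distal libraries. The 12 luminal markers summed to 1449 to 2767 CPM in the libraries labelled Gpr125-negative, 2732 to 3077 in TEB-distal and 2221 to 2990 in nipple-proximal libraries. Pericyte markers summed to 12.7 to 27.9 CPM in the labelled Gpr125-negative pair, 1.67 to 5.26 in TEB-distal and 3.88 to 23.8 in nipple-proximal libraries. Fibroblast markers summed to 28.6 to 149, 103 to 194 and 80.7 to 120 CPM in the same order. Adipocyte markers summed to 635 to 672, 8.93 to 18.1 and 1.65 to 23.6 CPM, nearly all of it Fabp4, which capillary endothelium also expresses. Basal marker sums and Adgrg2 were thus both higher in each Gpr125+ library than in the libraries labelled Gpr125-negative. Among the Gpr125+ libraries their orders differed. Adgrg2 was highest in TEB-distal replicate 1 (24.3 CPM), where the basal sum was the lowest of these libraries (4017 CPM). The part of these cell types in the levels of the receptors was not tested.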

How the data were processed

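RNA was measured in 6 SMART-Seq HT libraries, a full-length cDNA method without molecular identifiers. The authors aligned reads to mm10 with STAR, counted them per gene with HTSeq without regard to strand, and deposited raw read counts. The submitters' processing notes list STAR 2.7.3 and CASAVA, and the study's methods another STAR version. The annotation release used for counting is not given in the sources used here. The study's methods also give a wider age range and fewer mice per preparation than the labels. Whether replicates came from separate preparations is not stated, so p-values measure the spread between these samples.

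Total counts were 20134890 to 37296640 per library, and 3 counts were taken as the floor. Counts were tested in R 4.3.3 with edgeR 4.0.16 (TMM, filterByExpr by group, robust glmQLFit, two-sided glmQLFTest) on all 6 libraries. Genes were called at a Benjamini-Hochberg FDR under 0.1 over 17268 genes and a change of at least 2-fold. Standard errors came from the F statistic. The script was tested on simulated data. DESeq2 1.42.0, other filters, scalings, sample sets and the replicate block were alternatives.

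Coordinates and lengths come from GENCODE M21 (GRCm38), in which 53292 of 55291 symbols were found, and promoters from RefSeq (GRCm38.p6), with 22 of 30 members matched. Values in every library are given for Adgra1 to Adgra3 and for tested members with an unadjusted p under 0.05, or with groups apart by at least 4-fold, in any comparison. Adgrg1, Adgrg6, Celsr2 and the single polarity and marker genes were added after their values were seen. Partners were named if they are known partners of such a member or had an unadjusted p under 0.05. The members and the 12 gene lists were chosen with earlier results of these data known.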

Additional observations from a re-analysis of the deposited data

Results flagged for a closer look

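A signal appeared in a gene symbol outside the family rule. Adgrd2-ps, an annotated pseudogene, had 95 reads (3.23 CPM) in TEB-distal replicate 2 and 0 in the 5 other libraries, both labelled Gpr125-negative included. The same library held the 199 reads of Adgrb2. With the other TEB-distal library at 0, the count has no replicate behind it and was not tested.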

How the results depend on the processing

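The number of members called was 0 in each of the 3 comparisons with edgeR on the 4 compared libraries, DESeq2's size factors, total counts, no robust estimation or an FDR under 0.05 with no fold minimum. For TEB-distal against labelled Gpr125-negative libraries, it was 5 with DESeq2 on 6 libraries, 4 with DESeq2 on the 4 compared, 2 (Adgrf5 and Adgrl4) with all genes of at least 1 count, 4 at an unadjusted p under 0.05, and 0 to 3 with 1 library left out. It was 3 without labelled Gpr125-negative replicate 1 (Adgrf5, Adgrg2 and Adgrl4) and 2 without either nipple-proximal replicate (Adgrf5 and Adgrl4). For nipple-proximal against labelled Gpr125-negative libraries it was 2 and 1 with DESeq2 on 6 and on 4 libraries, 2 at an unadjusted p, and 0 to 1 with 1 library left out (Adgrg2, without labelled Gpr125-negative replicate 1). For TEB-distal against nipple-proximal it was 2 (Adgrf5 and Adgrl4) with DESeq2 on 6 or on 4 libraries, with all genes of at least 1 count and at an unadjusted p, and 0 with any library left out. A group left with 1 library was assumed to vary like the others. The cause of these differences was not tested.

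With the replicate number as a block, 0 members were called in each comparison. The numbers do not pair the libraries by any label, and deviations of same-numbered libraries correlated at -0.035, 0.19 and -0.0049 over 17268 genes. Of 141 values of 18 followed log2 fold changes under settings that kept all libraries of the comparison, 137 kept their direction. All 4 that reversed were of Adgra2: 2.39 with the replicate block for nipple-proximal over labelled Gpr125-negative, and 0.083 with DESeq2 on 6 libraries, 0.072 with DESeq2's size factors and 0.11 with total counts for TEB-distal over nipple-proximal. With 1 library left out, Adgra2 ranged from -8.06 to 6.26, from -2.46 to 6.35 and from -6.55 to 0.91 in the 3 comparisons, and Adgra1 from -7.05 to 8.21 for TEB-distal over labelled Gpr125-negative, where each group rests on at most 1 library with reads. Total counts moved the median of all genes to -0.23 for nipple-proximal over labelled Gpr125-negative and 0.21 for TEB-distal over nipple-proximal. Per coding length, which leaves out UTRs, Adgra3 was at 6.91, 2.52 and 4.01 per kilobase in labelled Gpr125-negative, TEB-distal and nipple-proximal cells in place of 3.35, 1.22 and 1.94, and ranked 5, 7 and 5. At 2 libraries a group and this spread, differences as large as those of Adgra3 could not be told from variation between libraries.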
